A study of Mus musculus with 9 samples.

Results

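CC chemokines that draw monocytes and macrophages into tissue, and a pair of their receptors, were followed in 4T1 primary tumors after short treatment with an inhibitor of focal adhesion kinase (FAK), a kinase of adhesion sites. The set was given by name and holds 9 genes: the ligands Ccl2, Ccl3, Ccl4, Ccl5, Ccl7, Ccl8 and Ccl12 and the receptors Ccr1 and Ccr2. Each was found in the count table by its Entrez identifier, so that 9 of the 18755 genes in the table were members, and all 9 passed the filter on low counts that left 13966 genes to be tested.

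The tumors grew from 4T1, a murine mammary carcinoma line, after 1000000 cells had been placed in the mammary fat pad of female BALB/c mice aged 6 to 10 weeks. From day 15 after injection, 6 mice received 50 mg/kg BI 853520 (BI) for 5 days and 3 mice received the 0.5% Natrosol vehicle. The labels number the tumors 1 to 3 (vehicle) and 4 to 9 (BI). All tumors derive from the same transplanted cell line, the study kept only tumors with RNA of sufficient quality in its analysis, and no library batch is named.

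RNA came from pieces of whole tumor, so that in each value fewer cells of a type and less RNA per cell cannot be told apart. Of markers of the tumor cells, Krt18 and Krt8 lay at 579 ± 57.7 and 478 ± 58.3 CPM (counts scaled to library size, SD, n = 3) in vehicle-treated tumors. Epcam was low, between 1.50 and 2.70 CPM under vehicle and between 1.98 and 10.3 CPM after BI. Total counts on genes were 21727879, 22589489 and 33850245 in the vehicle-treated tumors and between 16931607 and 22349873 (median 20168510.5) in the BI-treated tumors. No member fell below 184 counts in any tumor, while 3 counts corresponded to between 0.0886 and 0.177 CPM, a limit that covers counting error only.

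CC chemokines are small secreted proteins named for a pair of adjacent cysteines near the start of the mature protein. They act through receptors with G proteins of the inhibitory class, which turn on phosphoinositide kinases and Rac and so steer migrating leukocytes, and the receptors take ligands from overlapping sets. Ccl2 and Ccl12 act on Ccr2, which classical monocytes need to leave the bone marrow. Ccl7 acts on Ccr1, Ccr2 and Ccr3. Ccl3 and Ccl5 act on Ccr1 among other receptors, and Ccl4 is a close relative of Ccl3. Mouse Ccl8 differs from its human namesake in acting mainly on Ccr8. Ccl2 is made by many cells, tumor cells and fibroblasts among them, whereas Ccl5 is known from activated T cells and NK cells.

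The 7 ligand genes lie in a pair of clusters on chromosome 11 of the mm9 genome, and the receptor genes lie together on chromosome 9. The first cluster, chr11:81849073-81930301, holds the members Ccl2, Ccl7, Ccl12 and Ccl8 in that order, all on the plus strand. The second, chr11:83339280-83478185, holds the members Ccl5, Ccl3 and Ccl4, and Ccl5 and Ccl3 are on the minus strand. The CC ligand genes Ccl9 and Ccl6, which are not members, lie between Ccl5 and Ccl3. Ccr1 and Ccr2 lie within chr9:123876959-124028296. The stretches of coding sequence around the cysteine codons that define the family are shown because these genes are related in sequence, and reads must tell them apart. Each is 42 bases of the mm9 genome, read 5′ to 3′ on the coding strand, with the codons of the adjacent cysteines in capitals.
Ccl2: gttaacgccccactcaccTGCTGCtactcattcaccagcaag
Ccl7: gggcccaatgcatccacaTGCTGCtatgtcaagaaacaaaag
Ccl12: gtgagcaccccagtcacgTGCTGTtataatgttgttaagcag
Ccl8: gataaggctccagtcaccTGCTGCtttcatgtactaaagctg
Ccl5: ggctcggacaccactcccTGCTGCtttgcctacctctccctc
Ccl3: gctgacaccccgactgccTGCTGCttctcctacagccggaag
Ccl4: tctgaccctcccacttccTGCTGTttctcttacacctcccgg

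In the genome these stretches stand at chr11:81849990-81850031 (Ccl2), chr11:81860022-81860063 (Ccl7), chr11:81916118-81916159 (Ccl12), chr11:83342726-83342767 (Ccl5), chr11:83462136-83462177 (Ccl3) and chr11:83476966-83477007 (Ccl4). That of Ccl8 joins exons 1 and 2 and so spans an intron within chr11:81928814-81929581. Ccl12 and Ccl4 write the later cysteine as TGT, and the other 5 ligands write it as TGC. Whole coding sequences were most alike between Ccl3 and Ccl4 (71.4% identical bases), Ccl8 and Ccl12 (71.0%) and Ccl2 and Ccl7 (70.5%), and least alike between Ccl3 and Ccl7 (59.0%). Every exonic window of 50 bases in the 7 ligands and Ccr1 occurred once in the mm9 genome, as did 97.8% of the windows of Ccr2. None of the member exons overlapped an exon of another gene.

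BI treatment was accompanied by higher Ccl8, Ccl5, Ccr1 and Ccl7 RNA, and no member was called lower. By edgeR's quasi-likelihood test, 4 of the 9 members rose at a Benjamini-Hochberg adjusted p no higher than 0.05, against 14.6% of all genes tested that rose and 14.1% that fell. The remaining 5 members (Ccl2, Ccl3, Ccl4, Ccl12 and Ccr2) did not pass. At an unadjusted edgeR p no higher than 0.05, 6 members were higher and 1, Ccl2, was lower, against 20.5% and 20.3% of all genes, and neither DESeq2 nor limma-voom called a member lower after adjustment. The median log2 fold change of the members was 0.43, and that of all genes tested was -0.00371. At the cutoffs of the study's methods, an unadjusted p no higher than 0.05 with a change of 1.5-fold or more, Ccl5, Ccl8 and Ccr1 were higher and none was lower, against 9.59% and 3.57% of all genes. Without BI-treated tumor 4 the members higher at these cutoffs were 2, as Ccr1 had a log2 fold change of 0.57. For Ccl5, Ccl8 and Ccr1 the 6 BI-treated tumors were all higher than the 3 vehicle-treated ones, which held for 14.1% of all genes.

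**Figure D1:**
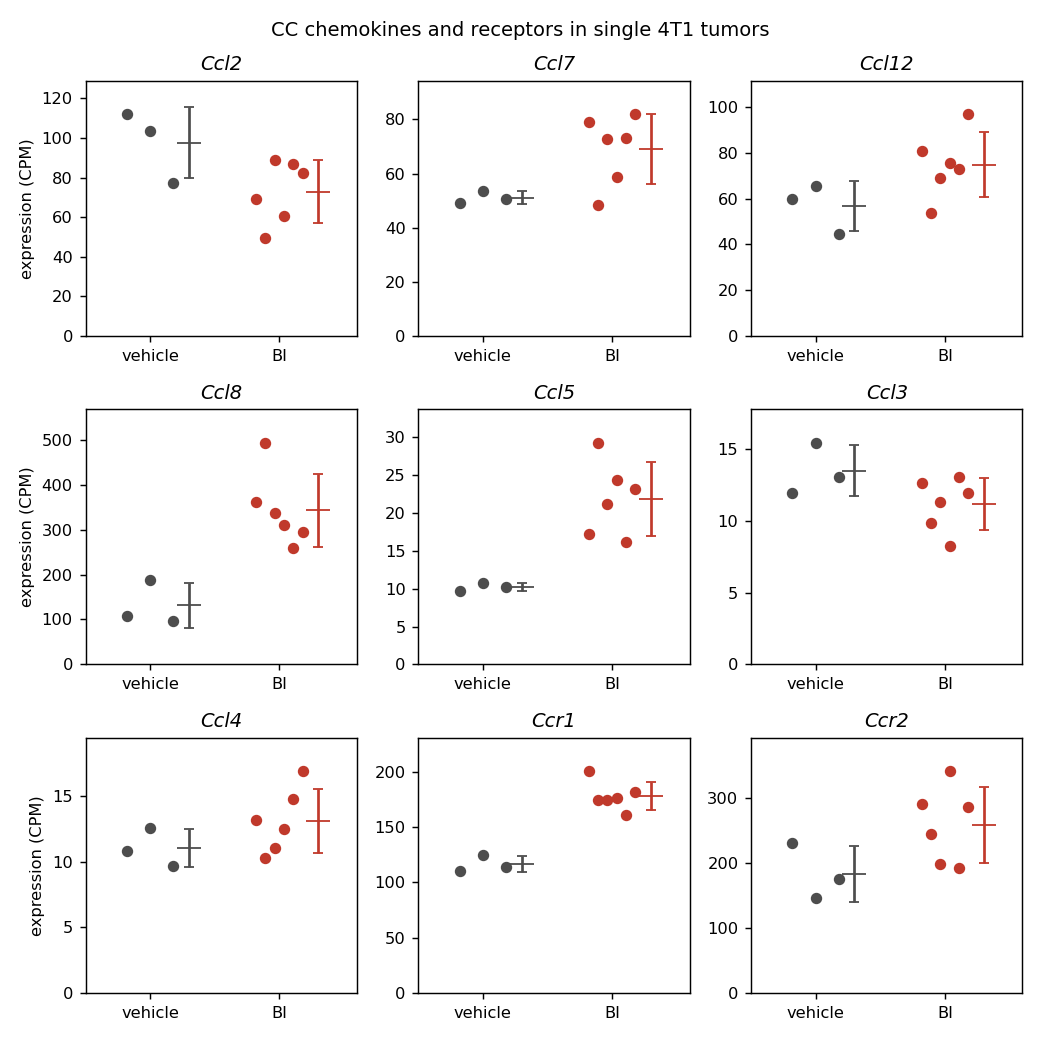
Normalized expression (CPM, linear axis from 0) of the 9 genes in each tumor, with points for single tumors and bars for the mean and SD of 3 vehicle-treated and 6 BI-treated tumors. The groups do not overlap for Ccl8, Ccl5 and Ccr1, whereas Ccl2 and Ccl3 have their highest tumor under vehicle.

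Ccl8 was the ligand that rose most. It stood at 107.8, 188.5 and 97.5 CPM in vehicle-treated tumors 1, 2 and 3, and ran from 258 over a median of 324 to 493 CPM after BI. The lowest BI-treated tumor thus exceeded the highest vehicle-treated tumor, and the vehicle-treated tumors differed more among themselves than for most other members. The means were 131 ± 49.8 (SD, n = 3) and 343 ± 81.9 CPM (SD, n = 6), a 2.61-fold difference with a log2 fold change of 1.39 (SE 0.233, edgeR adjusted p = 0.00119). RNA of Ccr8, the receptor that mouse Ccl8 is known for, was scarce, between 0.358 and 0.825 CPM under vehicle and between 0.228 and 0.898 CPM after BI, and was not called (log2 fold change 0.22, adjusted p = 0.752).

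Ccl7, which calls monocytes through Ccr2 and Ccr1, had 49.0, 53.7 and 50.8 CPM under vehicle, and 48.3 at the lowest, 72.9 at the median and 81.9 CPM at the highest after BI. In 5 of 6 BI-treated tumors it lay above all vehicle-treated tumors, and in the other, BI-treated tumor 5, just below them. Its means of 51.2 ± 2.39 (n = 3) and 69.0 ± 12.9 CPM (n = 6) gave a log2 fold change of 0.43 (SE 0.141, edgeR adjusted p = 0.0393). This call was the least secure of the 4: the adjusted p was 0.0504 with limma-voom, exceeded 0.05 when any vehicle-treated tumor or any of BI-treated tumors 4, 6, 8 and 9 was left out, and reached 0.125 without vehicle-treated tumor 1.

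Ccl12, which acts on Ccr2, showed 59.9, 65.6 and 44.4 CPM under vehicle and values from 53.6 over a median of 74.2 to 96.8 CPM after BI. Again 5 of 6 BI-treated tumors stood above all vehicle-treated tumors, with BI-treated tumor 5 inside their range. The log2 fold change of 0.40 (SE 0.161, edgeR adjusted p = 0.0804) did not pass the threshold, and the range of plus or minus 2 SE ran from 0.08 to 0.73. It passed with DESeq2 (adjusted p = 0.0435) and without BI-treated tumor 5 (adjusted p = 0.0205). Without vehicle-treated tumor 3 the log2 fold change was 0.25 (edgeR adjusted p = 0.318).

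Ccl2, the main ligand of Ccr2, had a negative log2 fold change. Its values were 112.0, 103.7 and 77.3 CPM under vehicle and 49.4 at the lowest, 75.8 at the median and 88.8 CPM at the highest after BI. The groups overlapped, and 3 of 6 BI-treated tumors lay below all vehicle-treated tumors. The log2 fold change was -0.42 (SE 0.172, edgeR unadjusted p = 0.0308 and adjusted p = 0.0864) and under the alternatives tried it lay between -0.57 and -0.31 with no adjusted p under 0.0544.

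Because Ccl2 and Ccl12 share a receptor and a cluster, their ratio was compared within each tumor. Ccl12 stood below Ccl2 by 0.90, 0.66 and 0.80 on the log2 scale in the vehicle-treated tumors, and its difference from Ccl2 ran from -0.36 over a median of 0.17 to 0.32 after BI. All 6 BI-treated tumors were above all 3 given vehicle. Among single genes tested, 14.1% separated the groups fully upward and 14% fully downward. For this and the other ratios the share of gene pairs that separate was not computed. The mean difference rose from -0.79 ± 0.12 (SD, n = 3) to 0.05 ± 0.28 (SD, n = 6), which is a change of 0.83 or 1.78-fold (exact permutation test, two-sided, p = 0.0238, the smallest that the 84 divisions of 9 tumors allow, and 0.0317 adjusted over 4 ratios).

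Ccl8 and Ccl7, of the same cluster, also moved apart. Ccl8 exceeded Ccl7 by 1.14, 1.81 and 0.94 on the log2 scale under vehicle and by 1.82 to 3.35 (median 2.20) after BI. The lowest BI-treated tumor hardly cleared vehicle-treated tumor 2. The change of 1.01, or 2.01-fold, had an exact permutation p of 0.0238, or 0.0317 after adjustment over the 4 ratios.

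The 250 bases before the transcription start of Ccl8 and of Ccl12, taken from the RefSeq promoter table (GRCm38.p6), are shown because these neighbours are alike in sequence, with log2 fold changes of 1.39 and 0.40 whose difference was not tested. Capitals mark a TATA box, TATAAA, the only motif found among those searched.
Ccl8: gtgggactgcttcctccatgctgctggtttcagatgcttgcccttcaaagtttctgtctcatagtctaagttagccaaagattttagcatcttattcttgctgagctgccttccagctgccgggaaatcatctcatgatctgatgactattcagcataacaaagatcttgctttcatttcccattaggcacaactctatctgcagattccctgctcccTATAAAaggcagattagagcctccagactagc
Ccl12: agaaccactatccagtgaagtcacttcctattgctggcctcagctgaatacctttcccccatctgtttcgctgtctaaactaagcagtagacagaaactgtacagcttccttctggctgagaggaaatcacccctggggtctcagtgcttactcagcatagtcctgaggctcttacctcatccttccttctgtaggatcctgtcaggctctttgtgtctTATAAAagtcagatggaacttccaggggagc

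These windows are chr11:82114935-82115184 and chr11:82101595-82101844 of GRCm38.p6, both on the plus strand, and were identical at 150 of 228 aligned bases (65.8%). The TATA box spans bases -32 to -27 before the start of Ccl8 and -31 to -26 before that of Ccl12. The table held windows for 5 of the 9 members, the others being Ccl3, Ccr1 and Ccr2, and had no entry for Ccl2, Ccl4, Ccl5 and Ccl7. On both strands 5 motifs were searched: NF-kB (GGG, any 2 bases, TT, any base, CC), found in 4.11% of 32851 mouse windows of this length, AP-1 (TGANTCA, with N for any base, 6.75%), the interferon response element (GAAA, any 2 bases, GAAA, 2.98%), the TATA box (TATAAA, 12.4%) and the GC box (GGGCGG, 32.7%). Apart from the TATA boxes of Ccl8 and Ccl12, none of these letters occurred in the 5 windows. A match describes the sequence and is not a measured site.

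In the other cluster, Ccl5 rose while Ccl3 and Ccl4 did not pass the test. Ccl5, an attractant of T cells and monocytes, had 9.67, 10.7 and 10.2 CPM under vehicle and 16.1 at the lowest, 22.2 at the median and 29.3 CPM at the highest after BI. The vehicle-treated tumors were close together and all 6 BI-treated tumors were above them. The means of 10.2 ± 0.510 (n = 3) and 21.9 ± 4.87 CPM (n = 6) differed 2.14-fold, a log2 fold change of 1.10 (SE 0.172, edgeR adjusted p = 0.000742).

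Ccl3, which acts on Ccr1, had 12.0, 15.4 and 13.1 CPM under vehicle and ran from 8.27 over a median of 11.6 to 13.1 CPM after BI. The groups overlapped, with 4 of 6 BI-treated tumors below all vehicle-treated tumors (log2 fold change -0.27, SE 0.142, edgeR adjusted p = 0.170). Ccl4, an inflammatory chemokine of macrophages and T cells, had 10.8, 12.6 and 9.69 CPM under vehicle and ran from 10.3 over a median of 12.8 to 16.9 CPM after BI. Here 3 of 6 BI-treated tumors stood above all vehicle-treated tumors (log2 fold change 0.25, SE 0.152, edgeR adjusted p = 0.240). The log2 fold change of Ccl3 was -0.17 without vehicle-treated tumor 2, and that of Ccl4 was 0.16 without vehicle-treated tumor 3.

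The ratio of these neighbours differed between the groups, and neither gene passed alone, but these results rest on unlike thresholds. The genes were tested with edgeR and adjusted over all genes tested, and the ratio by permutation with adjustment over 4 ratios only. Without adjustment, the edgeR p was 0.0789 for Ccl3 and 0.127 for Ccl4. Ccl4 lay below Ccl3 by 0.15, 0.29 and 0.43 on the log2 scale under vehicle, and its difference from Ccl3 ran from -0.03 over a median of 0.12 to 0.58 after BI. The groups did not overlap. The mean rose from -0.29 ± 0.14 (n = 3) to 0.22 ± 0.26 (n = 6), a change of 0.51 or 1.43-fold (exact permutation p = 0.0238, 0.0317 adjusted over the 4 ratios).

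**Figure D2:**
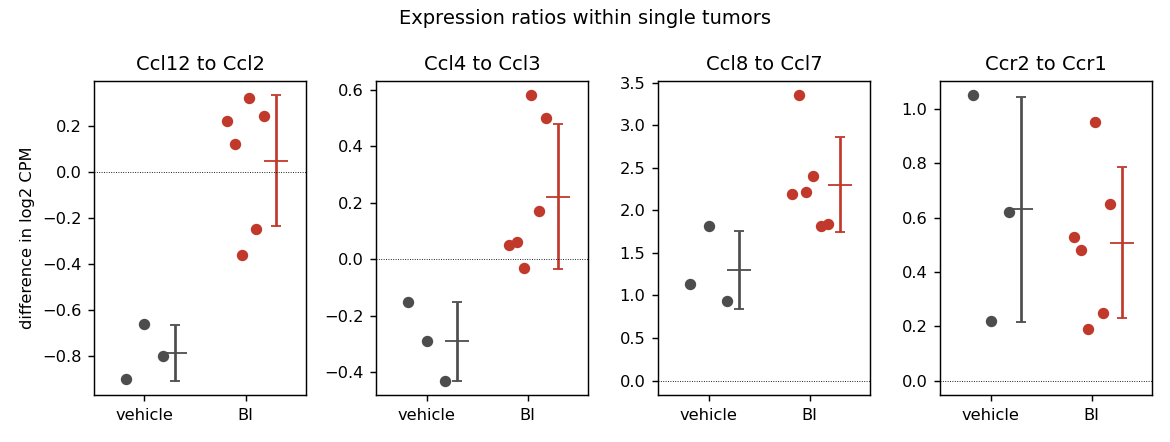
Difference in log2 CPM between 4 pairs of genes within single tumors, with points for tumors and bars for the mean and SD of 3 vehicle-treated and 6 BI-treated tumors. The Ccl12 to Ccl2, Ccl4 to Ccl3 and Ccl8 to Ccl7 differences are higher in all 6 BI-treated tumors, and the Ccr2 to Ccr1 differences overlap.

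Both receptors had higher mean RNA after BI, and Ccr1 passed the test. Ccr1, which monocytes, macrophages and neutrophils carry, stood at 110.7, 125 and 114 CPM under vehicle and ran from 161 over a median of 175 to 200.5 CPM after BI. The groups were clearly apart and their members close together. The means of 117 ± 7.35 (n = 3) and 178 ± 12.9 CPM (n = 6) differed 1.53-fold, a log2 fold change of 0.61 (SE 0.0712, edgeR adjusted p = 0.000122).

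Ccr2, the receptor of Ccl2, Ccl7 and Ccl12 on classical monocytes, had 229.7, 145 and 175 CPM under vehicle and ran from 191 over a median of 264 to 340.6 CPM after BI. Vehicle-treated tumor 1 reached into the range of the BI-treated tumors, 4 of which lay above all vehicle-treated tumors. The log2 fold change was 0.49 (SE 0.188, edgeR adjusted p = 0.0679), with 2 SE either side reaching from 0.12 to 0.87. It passed with edgeR's likelihood ratio test (adjusted p = 0.0359) and without vehicle-treated tumor 1 (adjusted p = 0.0384), BI-treated tumor 6 (0.0397) or BI-treated tumor 8 (0.0353). Without vehicle-treated tumor 2 or 3 the log2 fold change was 0.35 or 0.46 (edgeR adjusted p = 0.249 or 0.183).

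The ratio of the receptors showed no difference beyond its spread. Ccr2 exceeded Ccr1 by 1.05, 0.22 and 0.62 on the log2 scale under vehicle and by 0.19 to 0.95 after BI, with means of 0.63 ± 0.42 (n = 3) and 0.51 ± 0.28 (n = 6). The change of -0.12 had an exact permutation p of 0.571, and without vehicle-treated tumor 1 it turned to 0.09.

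The order of the members was read per length, as mean CPM per kilobase of counted exon. In vehicle-treated tumors Ccl8 led with 257 ± 97.5 CPM per kilobase, followed by Ccl2 at 121 ± 22.5 and Ccl12 at 106 ± 20.5. Ccl7 (64.0 ± 2.99), Ccr2 (51.1 ± 11.9) and Ccr1 (41.2 ± 2.60) came next, and Ccl5 (19.2 ± 0.960), Ccl3 (17.1 ± 2.24) and Ccl4 (16.7 ± 2.20) were last (SD, n = 3). The ranges of neighbours in this order overlapped except between Ccl8 and Ccl2, between Ccl12 and Ccl7 and between Ccr1 and Ccl5.

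After BI, Ccl8 reached 671 ± 160.3 CPM per kilobase and kept the lead, and Ccl12 (139.6 ± 26.5) came before Ccl2 (90.4 ± 19.6). Ccl7 (86.4 ± 16.2), Ccr2 (71.9 ± 16.2), Ccr1 (62.8 ± 4.57), Ccl5 (41.2 ± 9.17), Ccl4 (19.8 ± 3.68) and Ccl3 (14.2 ± 2.30) followed (SD, n = 6). Here the ranges of neighbours were separate between Ccl8 and Ccl12, between Ccr1 and Ccl5 and between Ccl5 and Ccl4. Per kilobase, Ccl2 was above Ccl12 in 3 of 3 vehicle-treated tumors and below it in 6 of 6 BI-treated tumors.

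The genes around the members did not all follow them. Within 200 kb of the Ccl2 to Ccl8 cluster, the other genes tested were Ccl11, an attractant of eosinophils (log2 fold change 0.50, adjusted p = 0.171), and Ccl1 (0.55, adjusted p = 0.379), and neither was called. Around Ccl5, Ccl3 and Ccl4, 3 of 10 other genes rose and 1 fell by edgeR's quasi-likelihood test, against 14.6% and 14.1% of all genes tested. The metalloprotease gene Mmp28 went from 14.8 ± 3.83 (n = 3) to 31.6 ± 6.35 CPM (n = 6) with a log2 fold change of 1.10 (adjusted p = 0.00187), and Wfdc17 had 0.47 (adjusted p = 0.0333). Taf15, an RNA-binding protein gene, fell by 0.23 (adjusted p = 0.0311). Ccl9 rose as well and is described with the other CC ligands.

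Around Ccr1 and Ccr2, several other chemokine receptor genes rose, where 14.6% of all genes tested rose. Cxcr6, found on T cells and NK cells, went from 8.20 ± 1.40 (n = 3) to 18.4 ± 3.69 CPM (n = 6), a log2 fold change of 1.16 (edgeR adjusted p = 0.000648). Xcr1, which marks cross-presenting dendritic cells, went from 2.73 ± 0.428 to 6.93 ± 2.24 CPM (1.34, adjusted p = 0.00231). Fyco1, an adaptor of vesicle transport, had 0.23 (adjusted p = 0.0245), and Ccr3 was not called (-0.06, adjusted p = 0.942). Ccr9 rose as well and is described with the other CC receptors.

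**Figure D3:**
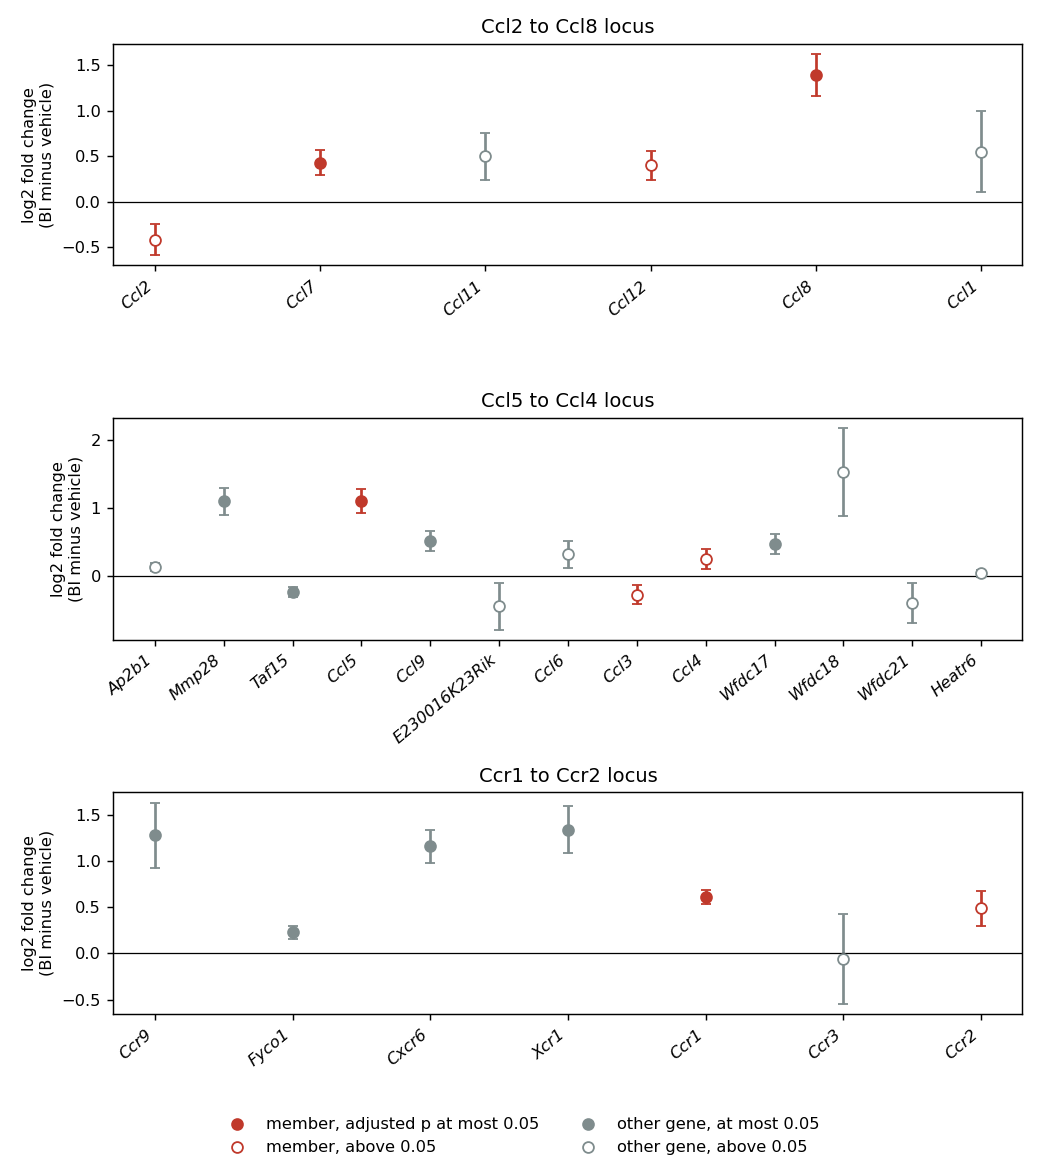
Log2 fold change (BI minus vehicle) with its SE for genes tested in and within 200 kb of each of the 3 loci, in genome order at equal spacing. Red points are members, grey points other genes, and filled points have an edgeR adjusted p of at most 0.05; in the Ccl2 to Ccl8 locus Ccl2 lies at -0.42 and Ccl8 at 1.39.

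Of the other CC receptors, 3 of the 8 tested rose and none fell, although 1 was lower without BI-treated tumor 8 and with limma-voom (median log2 fold change 0.20, against -0.00371 for all genes). Ccr7, which guides T cells and dendritic cells to lymph nodes, went from 35.9 ± 7.52 to 75.9 ± 18.8 CPM (1.08, SE 0.194, edgeR adjusted p = 0.00183). Ccr9, the receptor of Ccl25, was scarce, with 1.34 ± 0.354 and 3.23 ± 1.27 CPM (1.28, edgeR adjusted p = 0.0185), and lost its call without vehicle-treated tumor 2 (0.0715) or 3 (0.0785). Ccr10 was at or under 3 counts in every tumor.

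Among the other CC ligands, 1 of the 8 tested rose and none fell, with a median log2 fold change of 0.37. Of all genes tested 14.6% rose and 14.1% fell, and the counts of the other gene lists stand against the same shares. The count of higher ligands was 0 without vehicle-treated tumor 1 or 3 and 2 without BI-treated tumor 6. The called gene was Ccl9, a ligand of Ccr1 in the mouse, with 201 ± 38.1 (n = 3) and 287 ± 47.6 CPM (n = 6) and a log2 fold change of 0.51 (SE 0.145, edgeR adjusted p = 0.0208). Without vehicle-treated tumor 1 or 3 its adjusted p was 0.0844 or 0.108. The most abundant, Ccl6, which also acts on Ccr1, had 438.5 ± 125 and 545.8 ± 123 CPM and was not called (0.32, adjusted p = 0.248). Ccl20 was at or under 3 counts in every tumor.

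Of 4 atypical receptors, which bind chemokines without signalling through G proteins, 1 fell and none rose. Ackr3, a scavenger of the CXC ligand Cxcl12, went from 15.5 ± 0.613 (n = 3) to 8.43 ± 0.860 CPM (n = 6) and was below all vehicle-treated tumors in 6 of 6 (log2 fold change -0.88, SE 0.101, edgeR adjusted p = 0.000112).

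Downstream of the receptors, 13 of 18 genes of G protein signalling and migration rose, none fell (1 without vehicle-treated tumor 2), and the median log2 fold change was 0.68. Pik3cg, the phosphoinositide kinase that G protein subunits switch on in leukocytes, went from 29.5 ± 0.965 (n = 3) to 54.0 ± 5.14 CPM (n = 6), a log2 fold change of 0.88 (edgeR adjusted p = 4.04e-05). Gng2, a gamma subunit, went from 42.9 ± 0.767 to 81.1 ± 8.66 CPM (0.92, adjusted p = 4.17e-05). The most abundant gene, the inhibitory alpha subunit Gnai2, had 1052 ± 41.8 and 1138 ± 30.1 CPM and was not called (0.11, adjusted p = 0.177).

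The NF-kB pathway, through which inflammatory signals induce several of these ligands, had 1 of 13 genes higher, 3 lower and a median of -0.04, with 1 lower when vehicle-treated tumor 1 or 2 was left out. Of all genes tested, 14.6% were higher and 14.1% lower. Tnfaip3, an NF-kB target and inhibitor, went from 64.0 ± 6.78 (n = 3) to 46.3 ± 2.02 CPM (n = 6), a log2 fold change of -0.47 (edgeR adjusted p = 0.000585). The subunit Nfkb1 had -0.19 (adjusted p = 0.0251), and the kinase Ikbkb had 0.32 (adjusted p = 0.00506).

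Markers of several cell types that make or answer these chemokines also differed between the groups, in both directions. Of 14 macrophage markers 12 rose, 1 fell (Cd14, -0.52) and 1 was not called, with a median of 0.83 and a summed level of 2386, 2830 and 3067 CPM in the vehicle-treated tumors in rising order against 4277 to 5161 CPM (median 4966) after BI. C1qb, a complement subunit, went from 273 ± 25.5 (n = 3) to 591 ± 44.2 CPM (n = 6), and Csf1r, the receptor for macrophage growth factor, from 230 ± 16.5 to 431 ± 39.6 CPM (edgeR adjusted p = 1.29e-05 and 4.00e-05). The most abundant, the mannose receptor Mrc1, went from 518.5 ± 137 to 914 ± 219 CPM (adjusted p = 0.0119). The part of these cells in the changes of the members was not tested.

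Among the 8 markers of inflammatory monocytes, the cells that carry Ccr2, 5 rose (3 when any 1 vehicle-treated tumor was left out), 1 fell and the median was 0.86. The sum ran from 7963 to 10278 CPM (median 8839) under vehicle and from 12346 to 18631 CPM (median 13703) after BI, and was mostly Fn1 (8664 ± 1107 and 13636 ± 2165 CPM, adjusted p = 0.00490), which stromal cells also make. Ms4a4c went from 32.1 ± 9.10 (n = 3) to 75.1 ± 22.0 CPM (n = 6), with an edgeR adjusted p of 0.00359. Of 6 markers of patrolling monocytes 3 rose and none fell, with a median of 0.56 and sums of 738 to 872 CPM (median 786) and 907 to 1041 CPM (median 980.1). Cx3cr1 went from 20.1 ± 4.05 to 55.0 ± 16.0 CPM (adjusted p = 0.000674) and the integrin gene Itgal had a log2 fold change of 1.03 (adjusted p = 0.000264), while the most abundant, Ace, was not called (adjusted p = 0.0912).

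Of 8 T cell markers 7 rose, with a median of 1.10 and a sum of 71.4 to 84.03 CPM (median 81.4) under vehicle and 131 to 192 CPM (median 169) after BI. Cd8a, the most abundant, went from 17.5 ± 2.65 (n = 3) to 41.3 ± 8.67 CPM (n = 6), with an edgeR adjusted p of 0.000439. Cd3e and Cd3g, signalling subunits of the T cell receptor complex, had log2 fold changes of 1.14 and 1.08 (adjusted p = 8.58e-05 and 0.000360). Of 7 NK cell markers 6 rose, with a median of 1.27 and sums of 30.3 to 40.5 CPM (median 38.6) and 77.8 to 97.3 CPM (median 84.3). Prf1, the pore-forming protein of cytotoxic cells and the most abundant, went from 15.3 ± 2.99 to 39.5 ± 8.15 CPM (adjusted p = 0.000284), and the receptor Klrk1 had 1.27 (adjusted p = 0.000220). These cells are known to make Ccl5, whose own log2 fold change was 1.10, and their part in that change was not tested.

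Neutrophil markers, whose cells carry Ccr1, were lower where they passed the test. None of 9 rose and 4 fell, with a median of -0.70, and the sum went from 1107 to 1280 CPM (median 1143) under vehicle to 384 to 857 CPM (median 628) after BI. The alarmin S100a9 went from 384.5 ± 72.6 (n = 3) to 156 ± 34.8 CPM (n = 6), with an edgeR adjusted p of 0.000235, and Retnlg had a log2 fold change of -1.43 (adjusted p = 8.54e-05). The most abundant, Mmp9, was not called (-0.70, adjusted p = 0.101). Of 8 epithelial and tumor cell markers 2 fell (1 without vehicle-treated tumor 1 or 2 or BI-treated tumor 6, 7, 8 or 9) and none rose. Leaving out single tumors gave between 0 and 1 higher marker. The median was -0.24, with sums of 965 to 1189 CPM (median 1125) under vehicle and 757 to 965 CPM (median 813) after BI. Krt18, the most abundant, fell to 409.5 ± 58.3 CPM and Krt8 to 394 ± 38.4 CPM (log2 fold changes -0.50 and -0.28, adjusted p = 0.00636 and 0.0444).

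**Figure D4:**
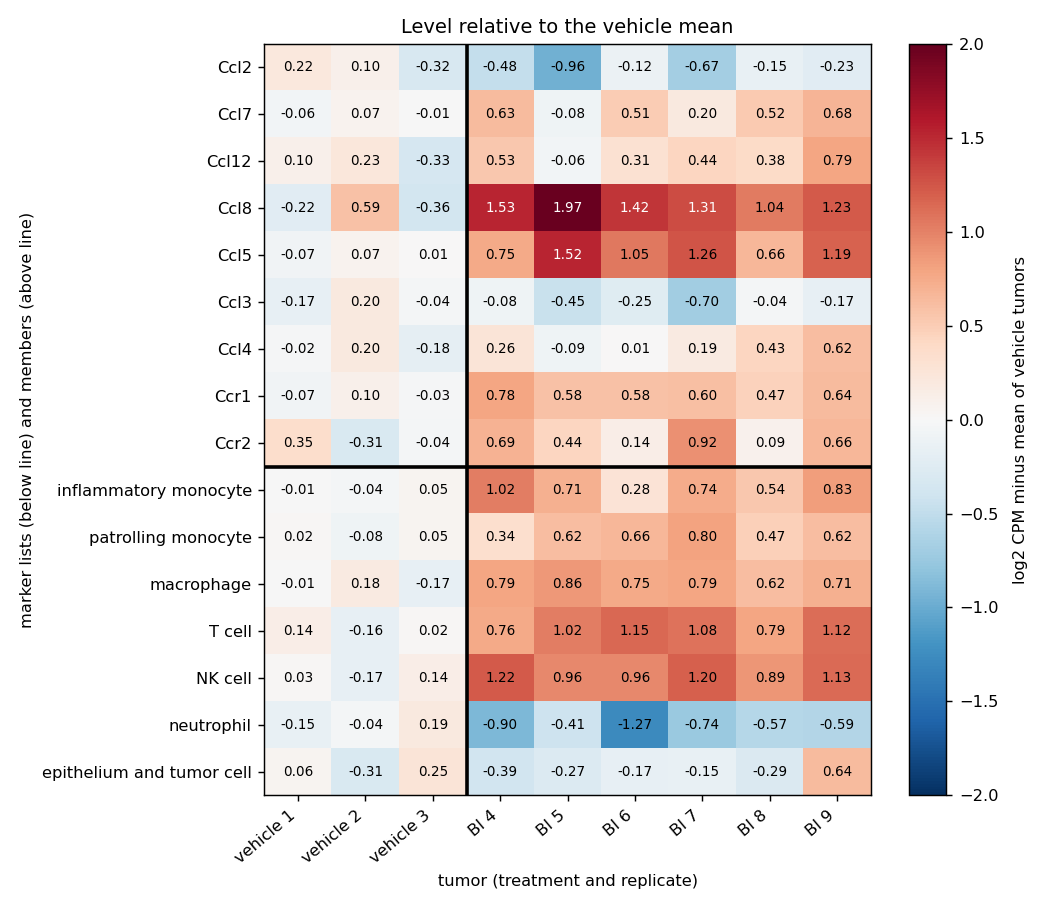
Level of each member, and mean level of each of 7 marker lists, in every tumor as log2 CPM minus the mean of the vehicle-treated tumors, with red for higher and blue for lower. Ccl8, Ccl5, Ccr1, Ccr2 and the monocyte, macrophage, T cell and NK cell lists lie above the vehicle mean in all 6 BI-treated tumors. Ccl2, Ccl3 and the neutrophil list lie below it in all 6. BI-treated tumor 5 has the lowest Ccl2 (-0.96) and the highest Ccl8 (1.97).

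The members were also set against the mean log2 level of the 14 macrophage markers in the same tumor, which was 0.76 higher after BI. A gene whose own level did not change would therefore be lower by 0.76 on this scale. Ccl8 was higher after BI by 0.66 and in 6 of 6 tumors. Ccl2, Ccl3 and Ccl4 had differences of -1.19, -1.03 and -0.52, each below all vehicle-treated tumors in 6 of 6. Ccl4 itself had a log2 fold change of 0.25, so its lower value here came from the rise of the list. The share of all genes placed in this way was not computed. Ccl7 (-0.35), Ccl12 (-0.36), Ccr1 (-0.15), Ccr2 (-0.27) and Ccl5 (0.31) each had BI-treated tumors within the vehicle range. These differences are given as a description without a test.

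Across the 9 tumors, which share the treatment contrast, the members followed different genes among 12177 with a mean log2 CPM of at least 1. The gene most like Ccr2 was Ly6c2, the surface antigen of classical monocytes (Pearson's r = 0.957), then Slc22a15 (0.954). Ccl8 was most like Ids, a lysosomal sulfatase (0.991), and Gas6, a ligand of the TAM receptors (0.985), and Ccr1 was most like Rcsd1 (0.992) and Irak4, a kinase of Toll-like receptor signalling (0.989). Ccl5 was most like Abcg3 (0.978) and Il16, a T cell attractant (0.978). Among the genes most like Ccl3 was Il1rn, the interleukin 1 receptor antagonist (0.928).

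For the rest, the closest genes were Gstm2 (0.968) and Elavl1 (0.955) for Ccl2, Trim34b (0.959) and Cd80 (0.931) for Ccl4, Psmd7 (0.960) and Vps29 (0.959) for Ccl7, and Pgd (0.954) and Zfp524 (0.951) for Ccl12. Between members the correlation was highest for Ccl8 with Ccr1 (0.921), Ccl5 with Ccl8 (0.905) and Ccl4 with Ccl12 (0.895), and lowest for Ccl3 with Ccr2 (-0.750) and Ccl2 with Ccl5 (-0.745). These coefficients are descriptions over n = 9 tumors from a search of many genes, and the group difference enters each of them.

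Among the 6 BI-treated tumors the ligands did not keep the same order. BI-treated tumor 5 had the lowest Ccl2, Ccl4, Ccl7 and Ccl12 and the highest Ccl8 and Ccl5 of its group. BI-treated tumor 9 had the highest Ccl7, Ccl12 and Ccl4, and BI-treated tumor 7 had the highest Ccr2 and the lowest Ccl3.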

How the data were processed

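The authors aligned paired-end reads of poly(A) RNA to mm9 with STAR, kept uniquely aligned reads and counted with QuasR those starting in exons of RefSeq genes. They deposited raw counts for 18755 genes with a counted exon length, and whether counting used the strand is not given in the sources used here. Symbols came from RefSeq by Entrez identifier (18700 genes), positions and coding sequence from GENCODE on mm9.

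Counts were TMM-normalized (factors 0.984 to 1.02) and tested with edgeR 4.0.16 (R 4.3.3, filterByExpr at 10 counts and a total of 15, quasi-likelihood F test, Benjamini-Hochberg over 13966 genes). Logarithms used a prior count of 2. Ratios were compared by exact permutation (SciPy 1.17.1), two-sided. P-values measure the spread between tumors, 1 library each; tumors of a group differed by more than counting error (chi-square per gene 8.83 to 30.0).

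Alternatives were RLE or no scaling factors, no filter, at least 1 CPM in 3 tumors, DESeq2 1.42.0, limma-voom (limma 3.58.1), the likelihood ratio test, a prior count of 0.5, and leaving out each tumor. Of 167 entries in the member list and 18 other lists, 163 were in the table; Ccl19, Ccl26, Trac and Ly6g were not analysed here. Named were all members, called genes among other CC ligands, CC receptors and atypical receptors, the 2 genes of smallest p and the most abundant gene of each other list, the 2 genes most correlated with each member, and genes within 200 kb. Other genes (Ccr8, Ccl6, Ccl20, Ccr10, Ccrl2, Epcam, Cd14, Fcer2a, Madcam1) were added after their values were seen. Members and lists were chosen with earlier results of these data known. A few genes named by the rule are not reported here.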

Additional observations from a re-analysis of the deposited data

How the results depend on the processing

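Between 3 and 5 members were higher at an adjusted p of at most 0.05, and none lower, under every alternative for scaling, filter and test and without each tumor in turn. Ccl5, Ccl8 and Ccr1 passed in all 16 of them, with log2 fold changes of 1.00 to 1.18, 1.21 to 1.74 and 0.57 to 0.66, whereas Ccl7, Ccl12 and Ccr2 crossed the threshold as given beside their values. Leaving out 1 tumor moved the change in the Ccl12 to Ccl2 ratio between 0.78 and 0.91, the Ccl4 to Ccl3 ratio between 0.44 and 0.58 and the Ccl8 to Ccl7 ratio between 0.80 and 1.26. Without a vehicle-treated tumor their exact permutation p was 0.0714, the smallest which 2 against 6 tumors allow, and without a BI-treated tumor 0.0357. The Ccr2 to Ccr1 ratio ran from -0.32 to 0.09 and turned its sign without vehicle-treated tumor 1 (0.09, p = 0.786, exact permutation). Counts of called genes in the gene lists, CC ligands and receptors included, moved by over 1.5 times in 52 instances, most often for fibroblast, lymph node and epithelial markers, then for endothelial markers, as given beside the lists where 1 tumor decided. Where edgeR's quasi-likelihood test called no gene of a list in a direction, an unadjusted p no higher than 0.05 was met by 1 CC receptor (Ccrl2, lower, called by limma-voom), 1 epithelial marker (Epcam, higher, with 1 call by DESeq2) and 1 adipocyte marker (Fabp4, higher, with 1 call by the likelihood ratio test), and by none in the other lists. No paired analysis was possible because the groups share no replicate number. Depth did not limit the members, whose lowest count was 184, but does limit scarce genes such as Ccr8 and Ccr9.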

Other observations

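Markers of other cells in these tumors also differed. Of 8 mast cell markers 6 rose and 1 fell (none without vehicle-treated tumor 2 or 3), with a median log2 fold change of 2.84, and the sum went from 63.5 to 81.3 CPM (median 74.8) under vehicle to 73.7 to 393 CPM (median 167) after BI. The proteases Tpsb2, the most abundant, and Cma1 had log2 fold changes of 3.25 and 3.10 (edgeR adjusted p = 0.00631 and 0.00576) and varied widely among BI-treated tumors (46.7 ± 33.5 and 30.8 ± 22.8 CPM, n = 6), while Kit, the receptor of stem cell factor, had 0.71 (adjusted p = 0.00475). Of 6 endothelial markers 3 rose, but 1 without vehicle-treated tumor 1, 0 without vehicle-treated tumor 3 and 5 without BI-treated tumor 8, with a median of 0.40, among them Kdr (0.38, adjusted p = 0.0214) and Tie1 (0.49, adjusted p = 0.0222), and the most abundant, Pecam1, was not called (0.34, adjusted p = 0.0532). Their sums were 165 to 189.6 CPM under vehicle and 188 to 272 CPM after BI.

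Of 8 fibroblast markers only Col1a2 rose (0.92, edgeR adjusted p = 0.0437), with a median of 0.73, and the most abundant, Col1a1, had 0.96 (adjusted p = 0.0538). Leaving out any 1 tumor turned this count of 1 into 0 (vehicle-treated tumors 1 and 2, BI-treated tumors 4, 7, 8 and 9) or 4 (vehicle-treated tumor 3, BI-treated tumors 5 and 6). None of 5 adipocyte markers was called by edgeR (median 1.03), among them Fabp4 (1.18, adjusted p = 0.0737, with 1 call in the list without BI-treated tumor 4 or 6) and Adipoq (1.03, adjusted p = 0.135). Of 4 tested markers of lymph node stroma and B cells 2 rose (median 0.83, 0 without vehicle-treated tumor 3 and 1 without any other tumor but BI-treated tumors 4 and 6), among them Cxcl13, a B cell attractant, which went from 5.03 ± 3.19 (n = 3) to 40.9 ± 35.6 CPM (n = 6; 3.05, adjusted p = 0.00877). Fcer2a and Madcam1 were not tested, being at or under 3 counts in every tumor. None of 4 tested skeletal muscle markers was called (median -0.03), Tnnt3 having -0.45 (adjusted p = 0.172) and Ckm 0.61 (adjusted p = 0.626).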
